A study of Mus musculus with 55 samples.

Results

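The set described here is 9 genes of cholinergic signalling, *Ache*, *Chrm1*, *Chrm2*, *Chrm3*, *Chrm4*, *Chrna4*, *Chrna7*, *Chrnb2* and *Lynx1*, out of 55487 genes counted. The set was chosen by symbol, and it was chosen because *Ache* was low in knock-out (KO) diestrus, so every contrast that holds KO diestrus mice is given as a description with no test. All 9 passed the filter on low counts, as did 16168 genes in all. RNA-seq was done on the dorsal hippocampus of 55 adult mice, 1 library per mouse, on a C57/BL6j background. The 27 wild-type (WT) mice were 5 males, 6 diestrus, 4 metestrus, 7 estrus and 5 proestrus females. The 28 mice with the *Cnih3* deletion (KO) were 7 males, 6 diestrus, 5 metestrus, 6 estrus and 4 proestrus females. Stage came from vaginal cytology, and ages ran from 10.86 to 23.71 weeks. The KO line lacks an exon of *Cnih3*, an AMPA receptor trafficking gene. Its gene-level counts cannot check the genotype, and *Cnih3* stood at 21.6 to 62.5 CPM (counts scaled to library size) in WT and 21.6 to 47.8 CPM in KO mice. The labels give the parents of all KO mice and of 11 WT mice as CNIH3 x B6 and those of 16 WT mice as B6 x B6. By the study's methods homozygous KO offspring came from matings of mutant carriers, so the first label is used as a name and not as a literal cross. Libraries held 25881295 to 63547098 counts. Each group holds separate mice, so the p-values measure the spread between animals, and litter was not modelled.

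Acetylcholine reaches the hippocampus mainly through axons from the medial septum, whose cell bodies lie outside the dissected tissue. It acts on muscarinic receptors, which couple to G proteins, and on nicotinic receptors, which are ion channels built of subunits. Acetylcholinesterase, the product of *Ache*, ends the signal by hydrolysing the transmitter at the synapse. RNA of the genes that define cholinergic neurons was scarce here, and all 5 such markers (*Chat*, *Slc18a3*, *Slc5a7*, *Lhx8*, *Isl1*) fell below the filter. *Chat*, the enzyme of acetylcholine synthesis, had a median of 1 count per library and was at 0 in 24 of 55 libraries. *Slc18a3*, the vesicular transporter, had a median of 1 count and was at 0 in 26 libraries. The summed level of the 5 markers ran from 0.0944 to 2.32 CPM over the mice. In bulk RNA, fewer cells of a type and less RNA per cell cannot be told apart.

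*Chrm4* and *Chrna4* lie on chromosome 2 and each other gene has a chromosome to itself. In GRCm38, *Ache* occupies chr5:137287519-137294466 on the plus strand, with 4623 bases of exon. *Chrnb2* occupies chr3:89746195-89764632 on the minus strand, and 16.3% of its exon bases lie under exons of *Adar* on the opposite strand. The libraries did not keep strand, so reads within that stretch cannot be assigned to *Chrnb2* or *Adar*. By the study's methods only unambiguous reads were counted. Reads from that stretch may therefore be missing from the *Chrnb2* counts, and its level per kilobase may be too low, which was not tested. For *Chrm1* at chr19:8663789-8683587 the share of exon bases under another gene was 5.07%, and it was at most 2.35% for the other genes. By GC content of the longest transcript, 7 of 9 genes were above the median of the tested genes (49.4%), with *Ache* at 58.7% and *Chrm2* lowest at 41.6%.

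The upstream 250 bases of *Ache* and *Chrnb2* are shown because *Ache* is the gene by which the set was chosen and *Chrnb2* had the lowest FDR of the set between younger and older WT diestrus mice. They are the RefSeq sequences of GRCm38.p6, written 5′ to 3′ up to the base before the RefSeq start, and capitals mark the GC box (GGGCGG, either strand). *Ache* is at chr5:137288004-137288253 on the plus strand, inside the span that GENCODE gives the gene, and *Chrnb2* at chr3:89764633-89764882 on the minus strand.
Ache: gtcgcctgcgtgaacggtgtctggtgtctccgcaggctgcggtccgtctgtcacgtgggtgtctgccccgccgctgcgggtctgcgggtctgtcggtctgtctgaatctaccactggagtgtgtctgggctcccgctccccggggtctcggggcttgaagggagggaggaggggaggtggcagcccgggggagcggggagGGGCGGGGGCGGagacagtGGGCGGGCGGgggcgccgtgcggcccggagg
Chrnb2: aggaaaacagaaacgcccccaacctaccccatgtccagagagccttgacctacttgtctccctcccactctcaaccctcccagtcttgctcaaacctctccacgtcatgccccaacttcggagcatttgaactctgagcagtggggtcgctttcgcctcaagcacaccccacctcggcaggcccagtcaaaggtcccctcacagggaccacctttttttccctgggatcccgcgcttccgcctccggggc
The *Ache* stretch held 4 GC boxes within 50 bases of the start, the last 2 overlapping, and the *Chrnb2* stretch held none. A GC box was present in 32.7% of 32851 promoters of this length and in 5 of the 7 genes of the set with a RefSeq promoter entry (*Ache*, *Chrm2*, *Chrm4*, *Chrna4*, *Chrna7*). *Ache* and *Chrna7* also held an E-box (CACGTG), which 6.02% of promoters did. None of the 7 held a CRE (TGACGTCA, 1.55% of promoters), an Egr1 motif (GCGTGGGCG, 0.536%) or a full palindromic estrogen response element (0.0639%). The *Ache* stretch was 73.6% G or C with 25 CG dinucleotides, against medians of 52.4% and 6 over all promoters, and the *Chrnb2* stretch was 59.6% G or C with 10.

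Levels between genes were compared as CPM per kilobase of exon. *Lynx1*, a membrane-anchored protein that binds nicotinic receptors and dampens them, was highest with a median of 46.1 CPM per kilobase over the 55 mice (range 27.7 to 81.1). *Chrm1*, the main Gq-coupled muscarinic receptor of hippocampal pyramidal cells, followed at 22.2 (14.4 to 28.2). *Ache* stood at 4.74 (1.85 to 8.15) and *Chrm3*, the other Gq-coupled receptor of the set, at 2.99 (1.79 to 3.98). The nicotinic subunits *Chrnb2*, *Chrna4* and *Chrna7* had medians of 1.87, 1.43 and 0.373. The Gi-coupled receptors *Chrm4* and *Chrm2* stood at 1.76 and 0.514. The ranges of *Lynx1* and *Chrm1* overlapped only between 27.7 and 28.2, whereas those of *Chrm4*, *Chrna4* and *Chrnb2* overlapped widely. Exon lengths are from GENCODE vM21, and the *Chrm4* model there is 1 coding exon of 1440 bases, so its level per length depends on that model. *Chrna7* was the least deeply counted, with 10 to 244 counts per library, against 440 to 2102 for *Ache* and 4231 to 18068 for *Lynx1*.

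**Figure D1:**
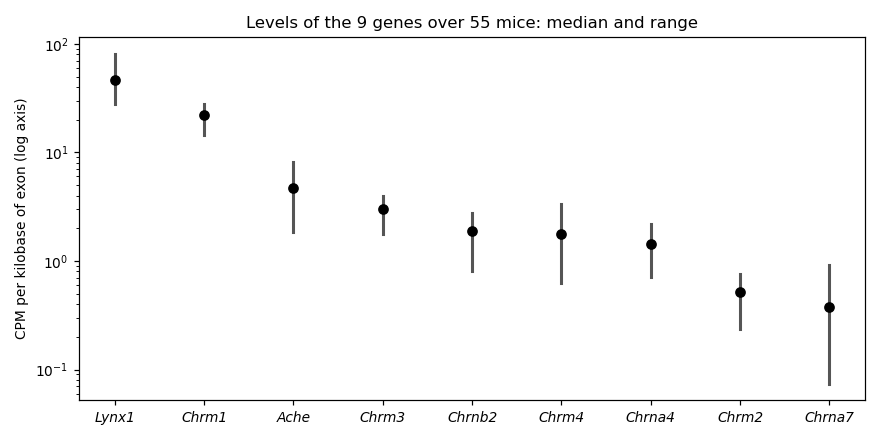
Level of each of the 9 genes in TMM-normalised CPM per kilobase of exon (log axis), with points for the median and bars for the range over 55 mice. *Lynx1* (46.1) and *Chrm1* (22.2) stand above *Ache* (4.74), and *Chrna7* is lowest (0.373).

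The diestrus mice stood apart by age. Of 12 diestrus mice, 7 were under 14 weeks (3 WT and 4 KO, 10.86 to 13.86 weeks) and 5 were 16.29 to 23.43 weeks old. The summed CPM of 7 nuclear-retained RNAs (*Malat1*, *Meg3*, *Neat1*, *Miat*, *Rian*, *Mirg*, *Snhg11*, all detected) was 550 to 916 in the 7 younger diestrus mice and 2440 to 3880 in the 5 older. Mice outside diestrus covered 852 to 4040, and the 10 of them under 14 weeks (12 to 13.57 weeks old) covered 1460 to 3850. Astrocyte markers (6 of 6 detected) summed to 2670 to 3040 CPM in the younger and 1460 to 2360 in the older diestrus mice, and oligodendrocyte markers (10 of 10) to 3010 to 3870 and 3360 to 5080. The nuclear-retained and astrocyte sums did not overlap between younger and older diestrus mice. Outside diestrus the astrocyte sum covered 1730 to 3400 CPM in the 10 mice under 14 weeks and 1550 to 2330 in the older mice. Choroid plexus markers (8 of 8) summed to 124 to 1080 CPM in the younger and 25.2 to 164 in the older, microglia markers (6 of 6) to 110 to 148 and 134 to 169, and CA1 pyramidal cell markers (5 of 5) to 238 to 315 and 308 to 339, with overlap in all 3. General neuron markers (4 of 4) summed to 6630 to 7770 CPM in the younger and 5530 to 7210 in the older. GABAergic interneuron markers (7 of 7) summed to 851 to 1150 and 707 to 957. Dentate granule cell markers (5 of 5) summed to 209 to 401 and 267 to 440. These lists overlapped as well. General neuron and GABAergic sums reached higher in the younger, and CA1 and dentate sums in the older. Among WT diestrus mice, where 30.9% of all tested genes passed between younger and older (limma, FDR under 0.05), 5 of the 7 nuclear-retained RNAs were lower in the younger. Of the 6 astrocyte markers *Aldoc* and *Aldh1l1* were higher, a share close to that of all genes. The 7 younger mice also carry mouse numbers from a run that no other mouse shares, and the 3 WT among them all carry the CNIH3 x B6 parent label, as does 1 of the 3 older WT. Age, that number series and the RNA differences cannot be told apart within diestrus, and their part in the results that follow was not tested.

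*Ache* was lowest in the younger diestrus mice of both genotypes. WT diestrus mice under 14 weeks had 11.4, 12.6 and 10.2 CPM (normalised by TMM, as are all CPM that follow), and the older 3 had 21.7, 17.4 and 19.3. KO diestrus mice under 14 weeks had 8.54, 11.9, 13.4 and 13.0 CPM, and the older 2 had 18.4 and 22.9. All 7 younger diestrus mice lay below all 48 other mice, of which the lowest was a WT metestrus mouse at 14.6 CPM. The older diestrus mice lay among the mice of the other stages.

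**Figure D2:**
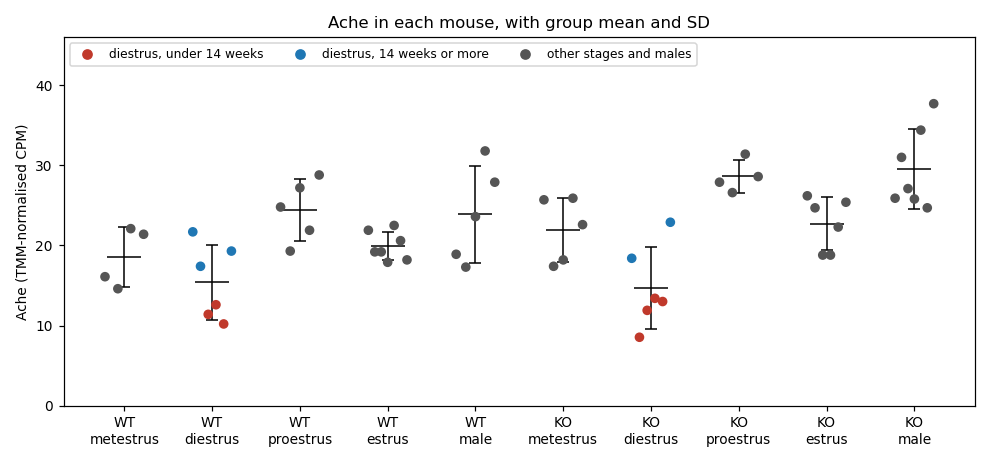
*Ache* in TMM-normalised CPM in each mouse of the 10 groups, with the group mean and SD as bars. Diestrus mice under 14 weeks (red) sit between 8.54 and 13.4, and diestrus mice of 14 weeks or more (blue) between 17.4 and 22.9, among the other mice (grey).

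By group, mean *Ache* ran from 29.5 ± 4.96 CPM in KO males (SD, n = 7) and 28.6 ± 2.04 in KO proestrus (n = 4) through 24.4 ± 3.88 in WT proestrus (n = 5), 23.9 ± 6.07 in WT males (n = 5), 22.7 ± 3.29 in KO estrus (n = 6) and 21.9 ± 4.03 in KO metestrus (n = 5). Below these came WT estrus at 19.9 ± 1.80 (n = 7), WT metestrus at 18.6 ± 3.76 (n = 4), WT diestrus at 15.4 ± 4.68 (n = 6) and KO diestrus at 14.7 ± 5.14 (n = 6). Among neighbours in that order, KO and WT proestrus alone were farther apart than the SD of either, and that pair did not pass the test (limma FDR = 0.597).

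Whether WT females of any stage differ from WT males was asked first. None of the 9 genes passed in any of the 4 contrasts, where 14 of 16168 genes (0.0866%) did (limma, false discovery rate (FDR) under 0.05), and edgeR and DESeq2 also called none. At an unadjusted p under 0.05, 5 of the 9 genes and 4452 of all genes passed in at least 1 contrast. The lowest FDR of the set was that of *Ache* in diestrus, at a log2 fold change of -0.82 ± 0.20 (SE) and limma FDR = 0.0706. With only the diestrus mice under 14 weeks, 5 genes passed (*Ache*, *Chrm1*, *Chrm3*, *Chrnb2*, *Lynx1*), and with only the older ones none did. Without WT diestrus mouse 1, 2 or 6, each an older mouse, 5 passed, and without WT male mouse 1, 2 or 3, 4, 4 and 5 passed.

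Comparison of the WT stages with each other gave 5 of 9 genes, all in contrasts with diestrus. In at least 1 of the 6 pairs, 30.6% of all tested genes passed. In diestrus against estrus, where 22.1% of genes passed, 4 of the set were lower and *Lynx1* was higher in diestrus. *Chrm1* fell from 155 ± 13.3 CPM in estrus to 126 ± 24.9 in diestrus, at -0.39 ± 0.09 on the log2 scale (SE, limma FDR = 0.00272). *Chrm3* fell by 0.47 ± 0.12 on the log2 scale (limma FDR = 0.0057) and *Chrnb2* by 0.55 ± 0.15 (limma FDR = 0.00946). *Ache* fell by 0.51 ± 0.17 on the log2 scale (limma FDR = 0.023), and *Lynx1* rose by 0.38 ± 0.12 (limma FDR = 0.0211). The median log2 fold change of the 9 genes was -0.33, and that of all tested genes was -0.01. In diestrus against proestrus, where 9.66% of genes passed, *Ache* alone of the set did, at -0.81 ± 0.18 (limma FDR = 0.00624).

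Those 5 genes did not pass in every analysis. The sample weights of the fit were 0.763 to 1.14 for the younger and 0.327 to 0.935 for the older WT diestrus mice. The count for the WT stage pairs was 0 with edgeR, with DESeq2, with voom without sample weights, with only the older diestrus mice, and without WT diestrus mouse 3, 4 or 5, each a younger mouse. It was 8, with *Chrm2* the exception, when only the younger diestrus mice were kept. With only the older diestrus mice, the diestrus minus estrus difference of *Chrnb2* was 0.00 ± 0.14 and that of *Ache* was -0.07 ± 0.16 (SE).

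KO females outside diestrus were compared with KO males next. In at least 1 of 3 contrasts 7.98% of all genes passed, and *Ache* was the 1 gene of the set to do so. It passed in estrus, a contrast with 7.66% of genes called, at -0.50 ± 0.14 on the log2 scale (SE, limma FDR = 0.0194). KO estrus mice had 26.2, 24.7, 18.8, 18.8, 22.3 and 25.4 CPM of *Ache*, and KO males ran from 24.7 over a median of 27.1 to 37.7. The groups overlapped, with 3 of the 6 estrus mice at 24.7 CPM or more, the level of the lowest male. The call was lost with edgeR (FDR = 0.228), DESeq2 (FDR = 0.155), voom without weights (FDR = 0.183), no filter (FDR = 0.119) or age as a covariate (FDR = 0.213), and without KO estrus mouse 3 or KO male mouse 5 or 7, where FDR reached 0.142. KO metestrus lay 0.45 ± 0.14 below males on the log2 scale, with limma FDR = 0.116. Between KO stages other than diestrus no member passed in any of 3 pairs, where 4.6% of genes did. At an unadjusted p under 0.05 *Ache* and *Chrm3* did, with 5781 of all genes, and edgeR and DESeq2 called none of the set.

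In KO diestrus *Ache* averaged 14.7 CPM, against 29.5 CPM in KO males. The weighted fit put the difference at -1.33 ± 0.14 on the log2 scale (SE), with sample weights of 1.61 to 1.74 for the younger and 0.433 to 0.509 for the older KO diestrus mice, and the fit without weights put it at -1.06 ± 0.16. Against KO proestrus and estrus it was at -1.18 ± 0.16 and -0.83 ± 0.16, for metestrus minus diestrus, 0.88 ± 0.16. These are the values by which the set was chosen. The other genes in KO diestrus minus KO males ran from -0.65 ± 0.33 for *Chrna7* to 0.49 ± 0.11 for *Lynx1*. Of these *Lynx1* alone was above 0, and the share of all tested genes on either side of 0 is not given here. With only the KO diestrus mice of 14 weeks or more, *Ache* was at -0.61 ± 0.20 against KO males, and with only those under 14 weeks at -1.46 ± 0.14. *Ache* in KO minus WT diestrus was -0.17 ± 0.18 on the log2 scale (SE), a difference smaller than its SE.

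Genotype outside diestrus was the last question of this kind. None of the 9 genes passed for KO against WT in metestrus, proestrus, estrus or males, where 0.476% of genes passed in at least 1 of the 4 contrasts. edgeR and DESeq2 called none either, and at an unadjusted p under 0.05 *Ache*, *Chrm4* and *Lynx1* passed, with 5195 of all genes. *Ache* was 0.34 ± 0.16, 0.20 ± 0.16, 0.14 ± 0.14 and 0.33 ± 0.16 higher in KO on the log2 scale, in that order. For *Lynx1* the values were 0.26 ± 0.12, 0.11 ± 0.13, 0.32 ± 0.11 and 0.33 ± 0.13, with limma FDR = 0.255 the lowest. For *Chrm4* the values were 0.22 ± 0.22, -0.27 ± 0.25, 0.44 ± 0.20 and 0.44 ± 0.25. Those of *Ache* and *Lynx1* were all positive, those of *Chrm4* were not, and none passed. The share of all genes with 1 sign in all 4 contrasts was not counted.

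Younger and older WT diestrus mice, 3 of each, differed in 5 of 9 genes, all lower in the younger, in a contrast where 30.9% of all tested genes passed. *Chrnb2*, a subunit of the most abundant heteromeric nicotinic receptor of the brain, had 9.86, 10.3 and 6.78 CPM in the younger and 19.7, 15.1 and 16.5 in the older, at -0.86 ± 0.17 on the log2 scale (SE, limma FDR = 0.000184). *Chrm1* had 93.4, 121 and 103 against 155, 149 and 135 CPM, at -0.43 ± 0.11 (limma FDR = 0.00212). *Ache* was at -0.71 ± 0.20 (limma FDR = 0.00461). The share of all genes whose younger and older mice do not overlap was not counted, so separation of the ages is not given as a result.

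*Chrna7*, the subunit of the homomeric nicotinic receptor that passes calcium, had 0.534, 0.985 and 0.893 CPM in the younger and 2.56, 3.64 and 1.65 in the older WT mice, at -1.62 ± 0.50 (limma FDR = 0.0116). *Chrm3* had 11.9, 15.9 and 11.2 against 24.0, 15.6 and 17.5 CPM, at -0.43 ± 0.16 (limma FDR = 0.0351). *Chrm3* overlapped between the ages, and the other WT mice covered 0.489 to 3.92 CPM of *Chrna7*. Without WT diestrus mouse 3, 3 genes passed (*Ache*, *Chrm1*, *Chrnb2*), and *Chrm3* and *Chrna7* were each lost without at least 1 other mouse (highest FDR 0.18 and 0.0954). edgeR, DESeq2 and voom without weights called the same 5 genes.

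*Chrm4*, *Chrna4*, *Chrm2* and *Lynx1* did not pass between younger and older WT diestrus mice. Their log2 fold changes were -0.74 ± 0.31 (limma FDR = 0.0641), -0.45 ± 0.24 (limma FDR = 0.148), -0.10 ± 0.28 (limma FDR = 0.819) and 0.25 ± 0.15 (limma FDR = 0.199). The median of the 9 genes was -0.45, and that of all tested genes was -0.03. Over all tested genes the median also followed transcript length, from 0.28 among the shortest of 4 equal classes to -0.22 among the longest, which holds *Chrm1*, *Chrm2* and *Chrnb2*. *Ache*, *Chrm3*, *Chrna4* and *Lynx1* are in the next longest class, whose median was -0.09. *Chrm4* is in the shortest class and *Chrna7* in the next shortest, whose median was 0.04, and both were negative (-0.74 and -1.62). The class of *Chrm4* depends on its GENCODE model of 1440 bases. The part of transcript length in the members' values was not tested.

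**Figure D3:**
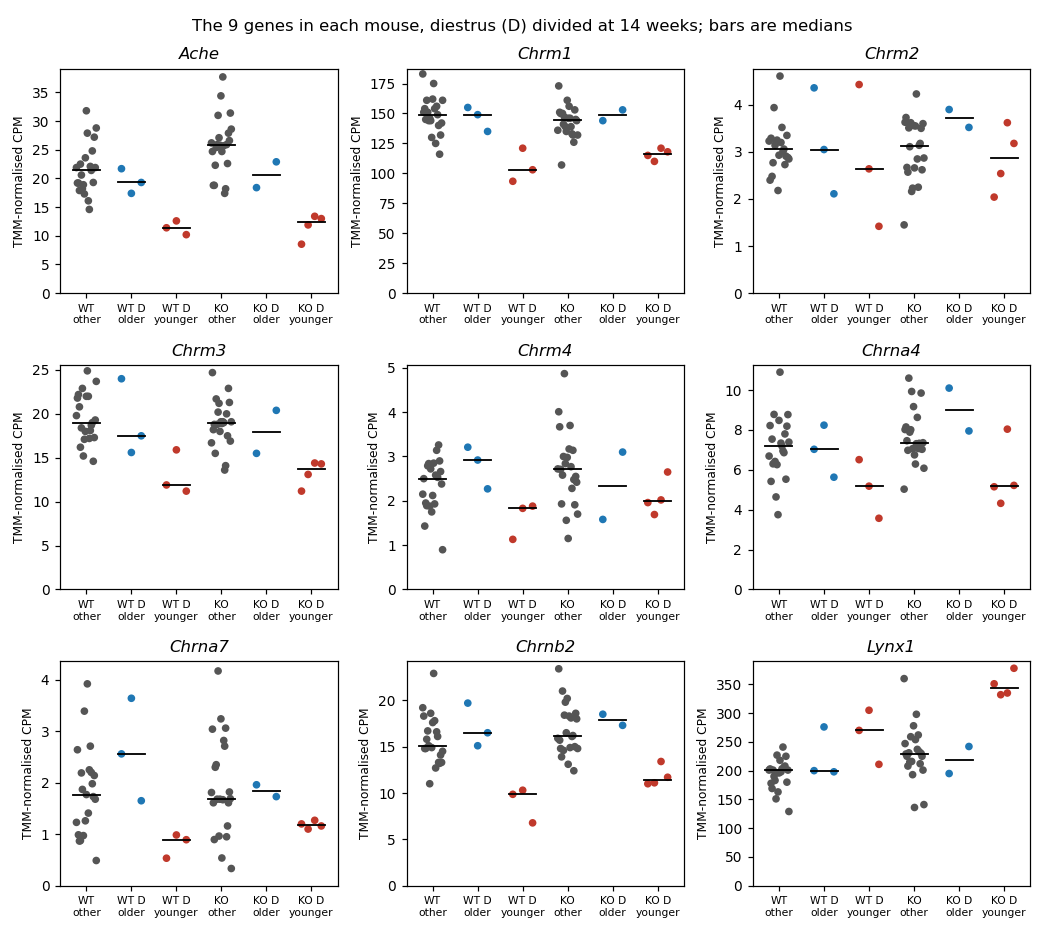
TMM-normalised CPM of each of the 9 genes in each mouse, with WT and KO mice divided into other stages and males, diestrus (D) of 14 weeks or more (older) and diestrus under 14 weeks (younger), and bars for medians. The younger diestrus mice sit lowest for *Ache* (8.54 to 13.4), and for *Lynx1* the younger KO diestrus mice sit at 332 to 378, above all other KO mice except 1.

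In the 4 younger KO diestrus mice the same genes stood on the same side, given here as a description. *Chrnb2* had 11.0, 11.1, 13.4 and 11.7 CPM in the younger and 18.5 and 17.3 in the older KO mice, a log2 difference of -0.62 ± 0.18. *Chrm1* had 115, 110, 121 and 118 against 144 and 153 CPM, at -0.36 ± 0.13. *Lynx1* had 351, 332, 335 and 378 against 195 and 242 CPM, at 0.69 ± 0.17. *Ache* was at -0.88 ± 0.21, *Chrna4* at -0.73 ± 0.25, *Chrna7* at -0.64 ± 0.53, *Chrm2* at -0.47 ± 0.29, *Chrm3* at -0.45 ± 0.18 and *Chrm4* at -0.09 ± 0.35. The difference between WT and KO in these younger minus older values was not tested.

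Mice outside diestrus were then divided at the same age, in a fit with 1 mean per genotype, diestrus or not, and age class. It had no term for stage or sex, which were unevenly spread over age outside diestrus. Of 7 WT estrus mice and 7 KO males 0 were under 14 weeks, and of 4 KO proestrus mice 3 were. Age and stage were therefore not separated in it. Neither in WT (4 younger, 17 older) nor in KO (6 younger, 16 older) did any gene of the set pass, and of all tested genes 0% passed in WT and 0% in KO (limma). At an unadjusted p under 0.05 none of the 9 passed, with 455 of all genes in WT and 1939 in KO. *Ache* was at -0.11 ± 0.18 in WT and -0.14 ± 0.13 in KO, and *Chrnb2* at -0.20 ± 0.14 and 0.02 ± 0.10. The younger WT diestrus mice were also set against the 4 younger WT mice of other stages and males, with ages not matched. In that contrast 25.5% of genes passed. *Ache* (-0.76 ± 0.23), *Chrm1* (-0.40 ± 0.11), *Chrm3* (-0.49 ± 0.16) and *Chrnb2* (-0.63 ± 0.18) were lower and *Lynx1* (0.42 ± 0.15) was higher in diestrus, with limma FDR from 0.00725 to 0.0297. With age in weeks as a term beside the 10 groups, no member passed and 0.0804% of genes did. In that fit *Ache* rose by 0.0337 ± 0.0145 per week on the log2 scale (SE). In the 43 mice outside diestrus the slope of *Ache* was 0.0149 ± 0.0149 per week (limma FDR = 0.586), and *Chrnb2*, at -0.0295 ± 0.0129 (limma FDR = 0.185), was the 1 gene of the set with an unadjusted p under 0.05.

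**Figure D4:**
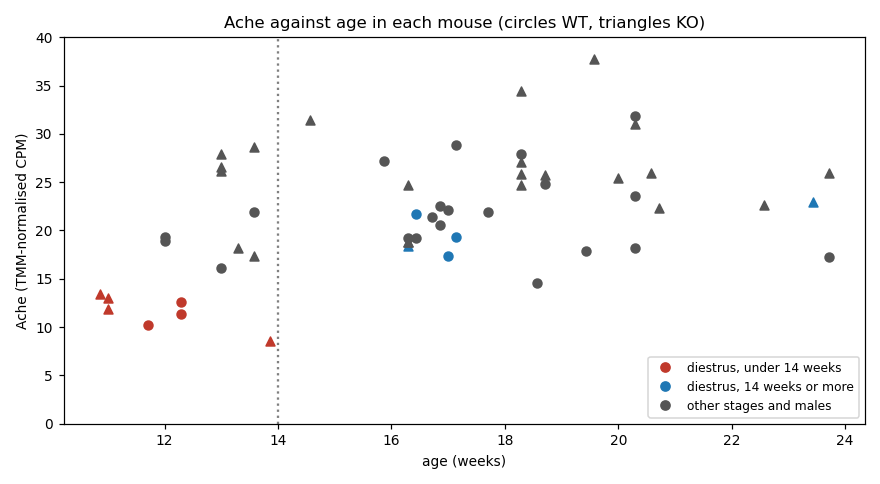
*Ache* in TMM-normalised CPM against age in weeks for each WT (circles) and KO (triangles) mouse, with the dotted line at 14 weeks. Diestrus mice under 14 weeks (red, 10.86 to 13.86 weeks) lie between 8.54 and 13.4. The 10 mice under 14 weeks outside diestrus (grey, 12 to 13.57 weeks) lie between 16.1 and 28.6, and the ages were not matched.

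**Figure D5:**
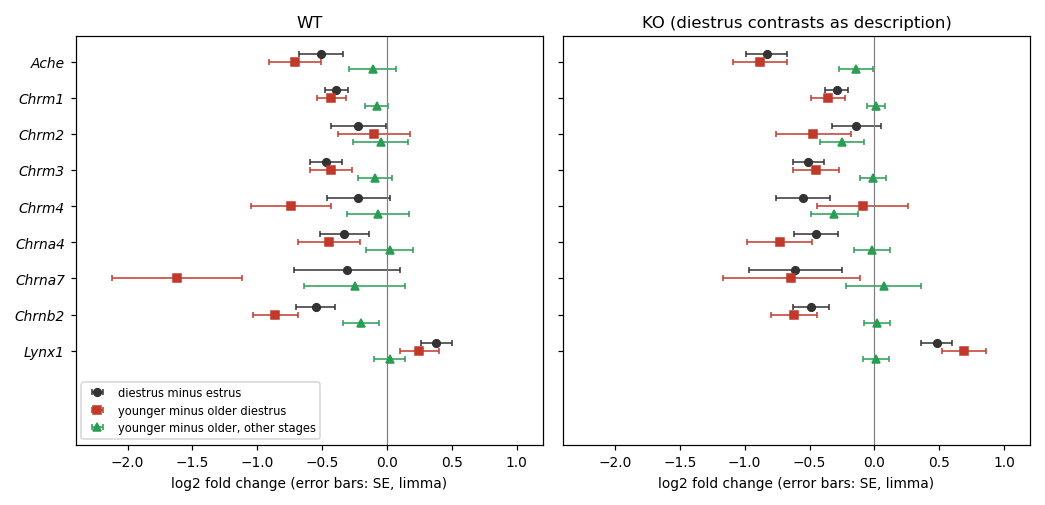
Log2 fold change with SE (limma) of each gene for diestrus minus estrus, younger minus older diestrus mice, and younger minus older mice outside diestrus, in WT (left) and KO (right, where contrasts with diestrus are a description). In WT, *Chrna7* is farthest from 0 between younger and older diestrus mice (-1.62), and *Lynx1* is the 1 gene to the right of 0 in both diestrus contrasts.

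The wider cholinergic pathway was read from a list of 54 further genes, of which 38 passed the filter. In WT diestrus against estrus 6 were lower and 2 higher, a share close to the 22.1% of all genes, with a median of -0.14 over the list. *Kcnj3*, a subunit of the potassium channel opened by Gi-coupled receptors, was lower (-0.42 ± 0.09, limma FDR = 0.00155). *Kcnq3*, a potassium channel subunit on the Gq side, was lower as well (-0.37 ± 0.10, limma FDR = 0.00918). *Gnb5*, a G protein beta subunit, was higher (0.32 ± 0.08, limma FDR = 0.00335), as was the Gq-family subunit *Gna11* (0.22 ± 0.08, limma FDR = 0.0347).

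Between younger and older WT diestrus mice 8 of the 38 were lower and 1 was higher, a smaller share than the 30.9% of all genes. *Bche*, butyrylcholinesterase, the other enzyme that hydrolyses acetylcholine, was at -1.49 ± 0.38 (limma FDR = 0.00265), and *Ric3*, a chaperone of nicotinic receptors, at -0.50 ± 0.14 (limma FDR = 0.00479). *Gnb5* was the gene that rose (0.29 ± 0.09, limma FDR = 0.0156). In diestrus against proestrus 3 were lower (*Kcnj9*, *Gnb2*, *Plcb3*) and *Gnaq* was higher (0.27 ± 0.07, limma FDR = 0.0142), a share close to the 9.66% of all genes. In KO estrus against KO males, *Ly6h*, a relative of *Lynx1* that lowers nicotinic receptor surface levels, was lower (-0.82 ± 0.18, limma FDR = 0.00517), and *Lypd1*, of the same family, was higher (0.36 ± 0.10, limma FDR = 0.0268). These 2 of 38 were a smaller share than the 7.66% of all genes.

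Genes most like *Ache* were found by Pearson correlation of log2 CPM over the 55 mice after group means were taken out, as a description. The 10 highest were *Tmem63b* (r = 0.813), *Cx3cl1* (0.806), *Hapln4* (0.795), *Ptprn* (0.776), *Gabbr1* (0.775), *Scamp5* (0.769), *Prkcsh* (0.762), *App* (0.761), *Slco3a1* (0.759) and *Sv2a* (0.756). Over all tested genes the median r with *Ache* was 0.00724 and the 95th percentile was 0.53. With the diestrus groups divided at 14 weeks the 10 values fell to between 0.509 and 0.667, and in the 43 mice outside diestrus they were 0.467 to 0.705. Libraries share depth, RNA quality and dissection, and the part of these was not tested.

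Within the set, *Ache* was most like *Chrnb2* (r = 0.659), *Chrm1* (0.65) and *Chrm3* (0.648), and these fell to 0.421, 0.429 and 0.495 with diestrus divided at 14 weeks. *Lynx1* was unlike *Ache* (-0.116) and *Chrm1* (-0.0746), but stood at 0.452 with *Chrna7* and 0.483 with *Chrm4*, rising to 0.691 and 0.646 with diestrus divided by age. *Chrna7* and *Chrm4* were alike at 0.686. The closest genes over the whole table were *Atp2b2* for *Chrm1* (0.9), *Gabbr2* for *Chrm3* (0.863), *Astn1* for *Chrnb2* (0.911), *Hpcal4* for *Lynx1* (0.835), *Atg9a* for *Chrna7* (0.838), *Kcnh7* for *Chrna4* (0.801), *Pcdhgc5* for *Chrm4* (0.773) and *Efnb2* for *Chrm2* (0.626).

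Transcript shares were computed from the deposited estimated counts. For *Chrm1*, Chrm1-201 held a median of 65.1% of the gene's estimated counts over the 55 mice (range 52.1% to 78%) and Chrm1-202 held 34.7% (21.9% to 47.9%). Medians of Chrm1-201 by group ran from 60.7% in KO proestrus to 71.5% in WT proestrus. In WT diestrus they were 61.5% in the younger and 65.7% in the older mice, and in KO diestrus 66.6% and 59.5%, and the mice of the 2 ages overlapped in WT but not in KO. For *Chrnb2*, the non-coding Chrnb2-202 held a median of 71.4% and the coding Chrnb2-201 28%, with single mice from 0% to 99.9% and from 0% to 99.6%. Group medians of Chrnb2-202 ran from 59% in WT metestrus to 86.3% in KO proestrus, a narrower span than that between mice. The main transcripts of *Ache*, *Chrna4* and *Lynx1* were not analysed here.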

How the data were processed

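Reads were aligned by the authors to GRCm38 (Ensembl 101) with STAR 2.7.9a, and the deposited gene counts are from featureCounts 2.0.3. The deposited transcript table holds estimated counts from Salmon 1.5.2. The log2 CPM values the authors deposited differed from those computed here by at most 4.97e-14 over 16164 genes. The kit did not mark strand. The gene table had 55774 lines, of which 287 repeated a gene, and 1 column of no listed mouse was not used. Of counts from 1 to 10, 60.1% were even. The highest correlation between 2 libraries was 0.991. The filter asked for more than 1 CPM in 10 or more libraries, and 5 ribosomal genes were dropped.

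Following the study, counts were TMM-normalised and fitted with voom and sample quality weights (limma 3.58.1, edgeR 4.0.16, R 4.3.3) with 1 mean per group for 10 groups, over 16168 genes, with Benjamini-Hochberg adjustment (FDR). DESeq2 1.42.0 and edgeR's quasi-likelihood test were alternatives. Mice are numbered within a group in accession order. The members and lists were chosen with earlier results of these data known. All 9 genes are named, with up to 3 pathway genes per direction and contrast by lowest FDR, and the genes most like each. Of the pathway genes that this rule names, 1 is not reported here. On data simulated with known changes, 88% of genes changed by 1 on the log2 scale were recovered between WT diestrus and estrus, and 45% of those changed by 0.5. Of the genes called there, 6.34% were false. Between KO estrus and KO males 79% and 37% were recovered. The simulation held no difference between younger and older diestrus mice, so its recovery may not carry over to the diestrus groups.

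The division of diestrus at 14 weeks was planned before these fits, but with earlier results of these data known. The comparisons with younger mice outside diestrus and the fit of age without diestrus were added after seeing the data.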

Additional observations from a re-analysis of the deposited data

Results flagged for a closer look

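Of 90 combinations of gene and group examined, 5 held a mouse far from the others of its group by Dixon's criterion, which chance alone meets in about 1 group in 20. *Chrm4* was at 0.896 CPM in WT proestrus mouse 5, with the other 4 mice between 2.38 and 3.26. *Chrna7* was at 0.489 CPM in the same mouse, with the others between 1.68 and 2.14. *Chrna7* was at 0.334 CPM in KO proestrus mouse 4, with the others between 1.61 and 1.82. *Chrna4* was at 8.63 CPM in KO metestrus mouse 2, with the others between 7.07 and 7.33. *Lynx1* was at 360 CPM in KO estrus mouse 1, with the others between 208 and 247.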

How the results depend on the processing

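The 5 genes called between WT stages became 0 with edgeR, DESeq2, voom without weights or only diestrus mice of 14 weeks or more, 2 with age as a covariate and 8 with only diestrus mice under 14 weeks, and 0 to 7 when 1 mouse was left out. The 0 called between WT stages and males became 5 with only diestrus mice under 14 weeks, and 0 to 5 with 1 mouse left out. The 1 called between KO stages and males became 0 with edgeR, DESeq2, voom without weights, no filter or age as a covariate, and 0 to 1 with 1 mouse left out. The 5 called between younger and older WT diestrus mice were the same genes in all 5 alternatives run, and 3 to 6 with 1 mouse left out. *Ache* in KO diestrus minus KO males went from -1.33 to -0.61 with only diestrus mice of 14 weeks or more, and ran from -1.43 to -1.15 with 1 mouse left out. In KO minus WT diestrus it ran from -0.51 to 0.01 with 1 mouse left out. The cause of these changes was not tested, and selection of diestrus mice by age also selects by number series and RNA differences. The counts for KO stage pairs and for KO against WT were 0 under all alternatives run. Restriction to mice from CNIH3 x B6 parents gave no value for the WT counts and the younger and older WT mice, as too few mice were left. No paired analysis was run, because each mouse is in 1 group and the labels used state no link between mice of different groups. Some titles share a leading number across groups, but its meaning is not stated, and no male and none of the 7 younger diestrus mice shares one. Depth limits *Chrna7* most, at 10 to 244 counts per library.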
